A study of Mus musculus with 6 samples.

Results

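The collagens that make up most of the fibrous matrix between cells were followed gene by gene in single-cell RNA sequencing (scRNA-seq) data of mouse bladder mucosa. The 10 genes, Col1a1, Col1a2, Col3a1, Col5a1, Col5a2, Col6a1, Col6a2, Col6a3, Col12a1 and Col14a1, were taken by name and matched by their Ensembl identifiers in each of the 6 count tables. They are 10 of the 14342 genes that all 6 tables listed once mitochondrial and ribosomal protein genes were set aside. The mucosa, which was peeled off the detrusor muscle and digested with collagenase IV and DNase I, came from wild-type C57BL/6 mice aged 8 weeks. There were 2 libraries from healthy mice, 2 from mice with acute injury at 48 hours after cyclophosphamide (CPP), and 2 from mice with chronic injury, given 4 rounds of CPP over 11 days. The study took the chronic bladders at 48 hours after the last injection as well, and each chronic dose was lower than the single acute dose. CPP is a cytotoxic drug whose breakdown products collect in urine and damage the urothelium that lines the bladder. Each condition drew on several mice of both sexes, in biological replicates, but which mice went into each library is not given in the sources used here. The study handled the libraries in batches, whose members were not known here, so batch and condition cannot be told apart, and p-values measure the spread between libraries. The comparisons ask which cell classes express each collagen and whether its level differed between conditions.

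Collagens I, III and V are fibril-forming collagens: their chains wind into long rigid helices that pack side by side into the banded fibrils which bear tension in connective tissue. Type VI collagen instead forms beaded filaments close to the cell surface, and types XII and XIV, members of the FACIT group (fibril-associated collagens with interrupted helices), sit on the outside of fibrils and influence how these are spaced. In the bladder, the lamina propria beneath the urothelium is rich in types I and III, which fibroblasts and myofibroblasts, their contractile and matrix-secreting relatives, are known to make and which accumulate in fibrosis.

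On the GRCm38 build, the genes for the 2 chains of type I collagen lie apart, Col1a1 at chr11:94936224-94953042 and Col1a2 at chr6:4504814-4541544. Col3a1 (chr1:45311538-45349706) and Col5a2 (chr1:45374321-45503282) are neighbours on opposite strands, with 24.6 kb between them, and Col6a2 (chr10:76595762-76623630) and Col6a1 (chr10:76708792-76726168) are 85.2 kb apart on the same strand. The others are Col5a1 (chr2:27886425-28039514), Col6a3 (chr1:90765923-90843971), Col12a1 (chr9:79598991-79718831) and Col14a1 (chr15:55307750-55520803). RefSeq promoter windows of 300 bases on GRCm38.p6, 250 before and 50 from the start site on, were found for 6 of the 10 genes. Those of Col1a2 and Col3a1, the fibril-forming members with the most UMIs in fibroblasts, and of the 3 type VI genes, whose chains assemble into 1 protein but whose levels differed between the cell classes below, are printed on the gene's strand from 5′ to 3′. They lie at chr6:4505368-4505667 (+), chr1:45311288-45311587 (+), chr10:76725995-76726294 (−), chr10:76623355-76623654 (−, the first of 2 windows) and chr1:90843922-90844221 (−), and the Col1a2 window falls within the gene as annotated. Capitals mark matches on either strand to the CCAAT box, to the letters TATAAA of a TATA box and to GGGCGG, the core of the GC box.
Col1a2: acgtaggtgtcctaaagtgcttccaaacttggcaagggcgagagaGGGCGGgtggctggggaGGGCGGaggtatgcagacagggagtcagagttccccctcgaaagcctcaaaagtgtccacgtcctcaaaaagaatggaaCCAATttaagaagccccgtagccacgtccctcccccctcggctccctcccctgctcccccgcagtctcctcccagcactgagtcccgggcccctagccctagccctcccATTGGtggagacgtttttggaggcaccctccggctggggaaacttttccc
Col3a1: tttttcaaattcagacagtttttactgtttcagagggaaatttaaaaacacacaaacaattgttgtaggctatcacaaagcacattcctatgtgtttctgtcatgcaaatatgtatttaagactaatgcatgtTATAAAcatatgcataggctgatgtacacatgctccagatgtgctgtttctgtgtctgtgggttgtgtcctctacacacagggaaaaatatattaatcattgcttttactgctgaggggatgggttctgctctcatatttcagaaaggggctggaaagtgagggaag
Col6a1: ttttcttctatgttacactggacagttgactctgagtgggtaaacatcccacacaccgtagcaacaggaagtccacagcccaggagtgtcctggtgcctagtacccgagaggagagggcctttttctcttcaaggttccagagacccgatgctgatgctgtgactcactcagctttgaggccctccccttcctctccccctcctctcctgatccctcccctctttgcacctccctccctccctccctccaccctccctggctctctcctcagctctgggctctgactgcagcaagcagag
Col6a2: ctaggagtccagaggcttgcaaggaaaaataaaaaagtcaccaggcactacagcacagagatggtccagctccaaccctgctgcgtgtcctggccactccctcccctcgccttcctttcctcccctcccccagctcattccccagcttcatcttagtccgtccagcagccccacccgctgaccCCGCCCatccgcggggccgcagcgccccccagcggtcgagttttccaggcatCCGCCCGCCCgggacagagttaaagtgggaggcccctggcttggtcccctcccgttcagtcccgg
Col6a3: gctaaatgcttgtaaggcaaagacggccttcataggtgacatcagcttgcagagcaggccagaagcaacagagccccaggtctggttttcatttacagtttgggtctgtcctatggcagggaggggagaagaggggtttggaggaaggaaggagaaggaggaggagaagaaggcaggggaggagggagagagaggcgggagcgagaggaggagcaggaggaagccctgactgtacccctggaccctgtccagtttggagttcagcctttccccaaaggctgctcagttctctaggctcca
The last pair of GGGCGG matches in the Col6a2 window overlap each other, and no other matches do. CCAAT was found in 37.4%, TATAAA in 13.6% and GGGCGG in 35.7% of all 32851 promoter windows of this length. The Col1a2 window held 2 CCAAT and 2 GGGCGG matches, that of Col3a1 1 TATAAA match, and that of Col6a2 3 GGGCGG matches. None of these letter strings was found in the windows of Col6a1 and Col6a3. GC content was 37.7% for Col3a1 and 56.3% to 64.3% for the other 4, against a median of 52.7% over all windows. A match is a description of the letters, not a binding site.

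The tables held raw counts of unique molecular identifiers (UMIs), which tag each captured transcript, with 5348 to 15062 cell barcodes in a library, 54604109 to 111985678 UMIs in all and 5530 to 9138 UMIs in the median cell. Between 36 and 229 barcodes were shared by any 2 libraries, at most 2.28% of the smaller one. The median correlation between cells with the same barcode was above that of shuffled barcodes in 13 of 15 pairs of libraries, by 0.00962 at most. Cells were clustered without the collagen genes, and clusters were named from marker genes. The cells called fibroblasts here, short for fibroblast-like, numbered 825, 1309, 304, 1667, 1134 and 21, and those called myofibroblasts, short for myofibroblast-like, numbered 970, 367, 153, 2866, 125 and 76, in the order healthy 1, healthy 2, acute 1, acute 2, chronic 1 and chronic 2. The fibroblast value of chronic 2 thus rests on 21 cells with 64911 UMIs. The 5 fibroblast markers that all tables list (among them Pi16 and Clec3b) summed to 3204 to 10098 UMIs per 1000000 UMIs (CPM) in fibroblasts and 299 to 2759 in myofibroblasts, and the 5 myofibroblast markers (among them Acta2 and Car3) to 227 to 2025 and 9815 to 20596. Clusters were named from these lists, so the sums describe the classes and are no independent check of their names. Urothelial cells numbered 4790 to 8678 per library. In all that follows, a level is in CPM, the UMIs of a gene per 1000000 UMIs of the cell class in that library. Fewer transcripts per cell and a lower share among all transcripts cannot be told apart on this scale.

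Fibroblasts and myofibroblasts, the mesenchymal classes, held most of the collagen transcripts of the named classes in each library. The 10 genes together took 1.14% to 2.50% of the UMIs of fibroblasts (median 1.57%) and 1.59% to 4.51% of those of myofibroblasts (median 2.98%). In mural cells, the contractile cells around small vessels, the share was 0.141% to 0.144%. It was 0.0191% to 0.272% in endothelial cells, 0.0111% to 0.0946% in macrophages, 0.0217% to 0.0844% in natural killer (NK) cells and 0.0152% to 0.0786% in urothelial cells. Fibroblasts and myofibroblasts, 1.93% to 37.5% of the cells in the named classes of a library, held 62.7% to 92.6% of the collagen UMIs of these classes (median 88.3%), the lowest in chronic 2, where these cells were rarest. Called doublets, doublet clusters and unnamed clusters are left out of both shares. For Col14a1 alone the range was 28.1% to 91.0%.

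The 6 mural markers (among them Rgs5 and Notch3) summed to 1866 to 5046 CPM in mural cells and to 22.5 to 108 in fibroblasts and 69.3 to 185 in myofibroblasts. Mural cells also read 7914 to 25369.6 CPM of the 5 myofibroblast markers, of which Acta2, Tagln and Myl9 are smooth muscle genes. The mean of fibroblasts and myofibroblasts was compared with each other class in edgeR's quasi-likelihood test, with the library as a block and Benjamini-Hochberg adjustment over 10674 genes. Of all genes tested, 33% were called higher in the mesenchymal classes than in urothelial cells, 28.9% than in macrophages, 23.3% than in endothelial cells, 22.4% than in NK cells and 9.83% than in mural cells. The 10 collagens were called higher in all 50 pairs of gene and class, with differences of 2.47 to 6.33 on the log2 scale, the largest for Col1a1 against urothelial cells (SE 0.43, adjusted p = 6.23e-15). The smallest was Col6a3 against mural cells (SE 0.69, adjusted p = 0.0105), a class with 20 cells or more in acute 1 and acute 2 alone. Without acute 2 that difference was 1.29 (adjusted p = 0.252). In acute 1, mural cells read 134 CPM of Col6a3, from 14 UMIs, above the 93.9 CPM of that library's fibroblasts. In every other library with enough cells, and for the other 9 genes, each non-mesenchymal class lay below both mesenchymal classes. The mesenchymal level used next is not that mean but the CPM of the pooled UMIs of both mesenchymal classes in the same library. It therefore leans to the class with more UMIs. Fibroblasts held 1044153 and myofibroblasts 627173 UMIs in acute 1, and 3473460 and 11101592 in acute 2. Set against this level, Col6a1 in mural cells stood at 18.5% to 22.6%, Col6a2 at 15.2% to 18.0% and Col6a3 at 8.74% to 31.5%. Col1a1 stood at 3.55% to 3.92% and Col1a2 at 4.66% to 5.08%. These ratios rest on 69 UMIs of Col6a1 and 77 of Col1a1 over both libraries. In acute 1 they rest on 18 UMIs of Col6a1, 11 of Col6a2, 14 of Col6a3 and 20 of Col1a1. Counting error is therefore wide there, and the order of genes given below for acute 1 is uncertain. Of the mesenchymal markers, Dcn (decorin) stood at 2.43% to 8.22% in mural cells, Mgp at 7.35% to 11.7% and Gsn at 15.0% to 21.1%. In acute 1 these markers ran from 8.22% to 15.0%. Col1a1 (3.92%) and Col1a2 (4.66%) lay below them there, and Col6a1 (18.5%), Col6a2 (18.0%) and Col6a3 (31.5%) above. In acute 2 the markers ran from 2.43% to 21.1%, and of these collagens only Col6a1 (22.6%) lay outside. The part of free RNA taken up in the droplets was not tested. In urothelial cells the 10 genes lay at 0.364% to 4.81% of the mesenchymal level, where Dcn lay at 0.709% to 2.46%, Mgp at 0.660% to 3.59% and Gsn at 6.78% to 27.7%. All 10 were above Dcn in healthy 1, healthy 2 and acute 2, 9 were in chronic 1, 5 in acute 1 and 2 in chronic 2. Above Mgp lay 9 in healthy 1, 9 in healthy 2, 6 in acute 1, 6 in acute 2, 3 in chronic 1 and 2 in chronic 2. The count thus depended on the marker chosen. None was above Gsn, but Gsn itself stood far above Dcn and Mgp in these cells, so this says little about the collagens. The part of free RNA was not tested here either. In NK cells of healthy 2, Col5a1, Col5a2 and Col6a1 had no UMI, which allows up to 28.3 CPM for counting error only.

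**Figure D1:**
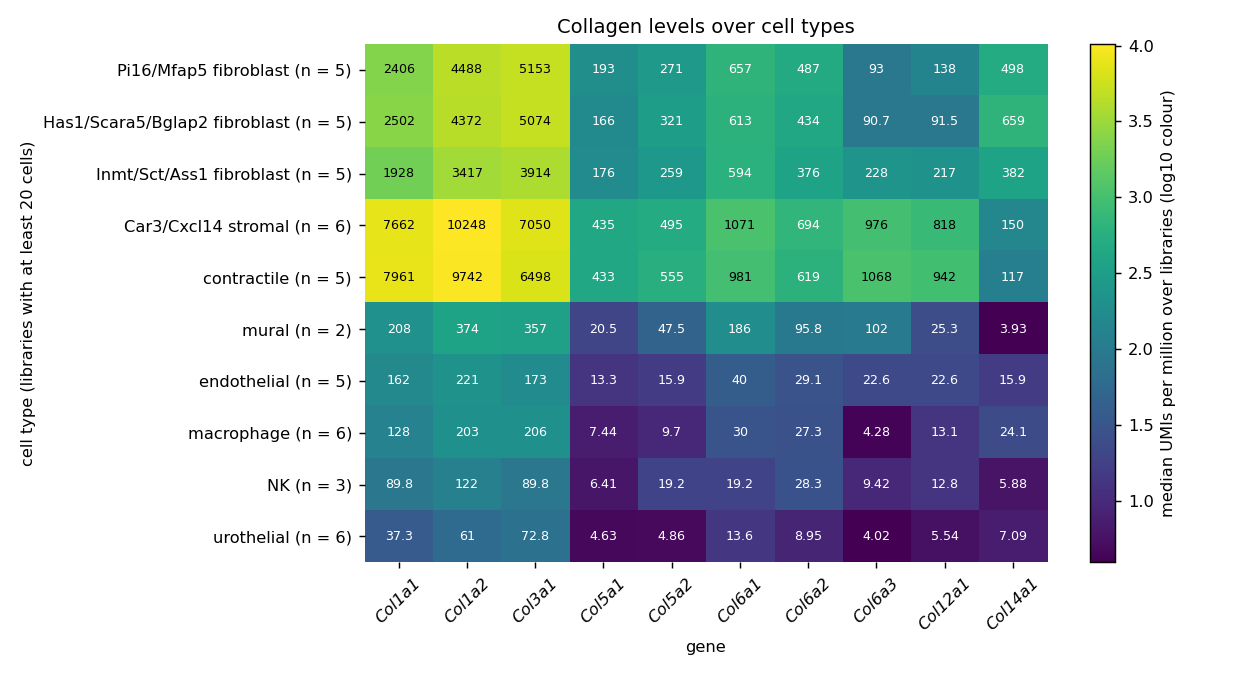
Median level of each collagen (columns) in each cell type (lines), in CPM over the libraries with at least 20 cells of that type, whose number is given beside its name; the colour is the log10 of the level. The fibroblast subtypes and both myofibroblast subtypes (Car3/Cxcl14 and contractile) are the brightest for every gene but Col6a3, for which mural cells (102) lie above Pi16/Mfap5 (93.0) and Has1/Scara5/Bglap2 (90.7) fibroblasts. Col1a1 goes from 7961 in contractile cells to 37.3 in urothelial cells.

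Within the mesenchyme the collagens parted. Of the 10 genes, 9 were called higher in myofibroblasts than in fibroblasts and Col14a1 was called higher in fibroblasts, in an edgeR quasi-likelihood fit with the library as a block and adjustment over 10884 genes. Over all genes tested, 21.1% were called, 11.6% higher and 9.51% lower in myofibroblasts. The median difference of the 10 genes was 0.80 on the log2 scale and that of all genes 0.0058. Clusters were found without any collagen gene but with other genes of the same cells, so the comparison is not independent of how these cells were sorted into classes.

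**Figure D2:**
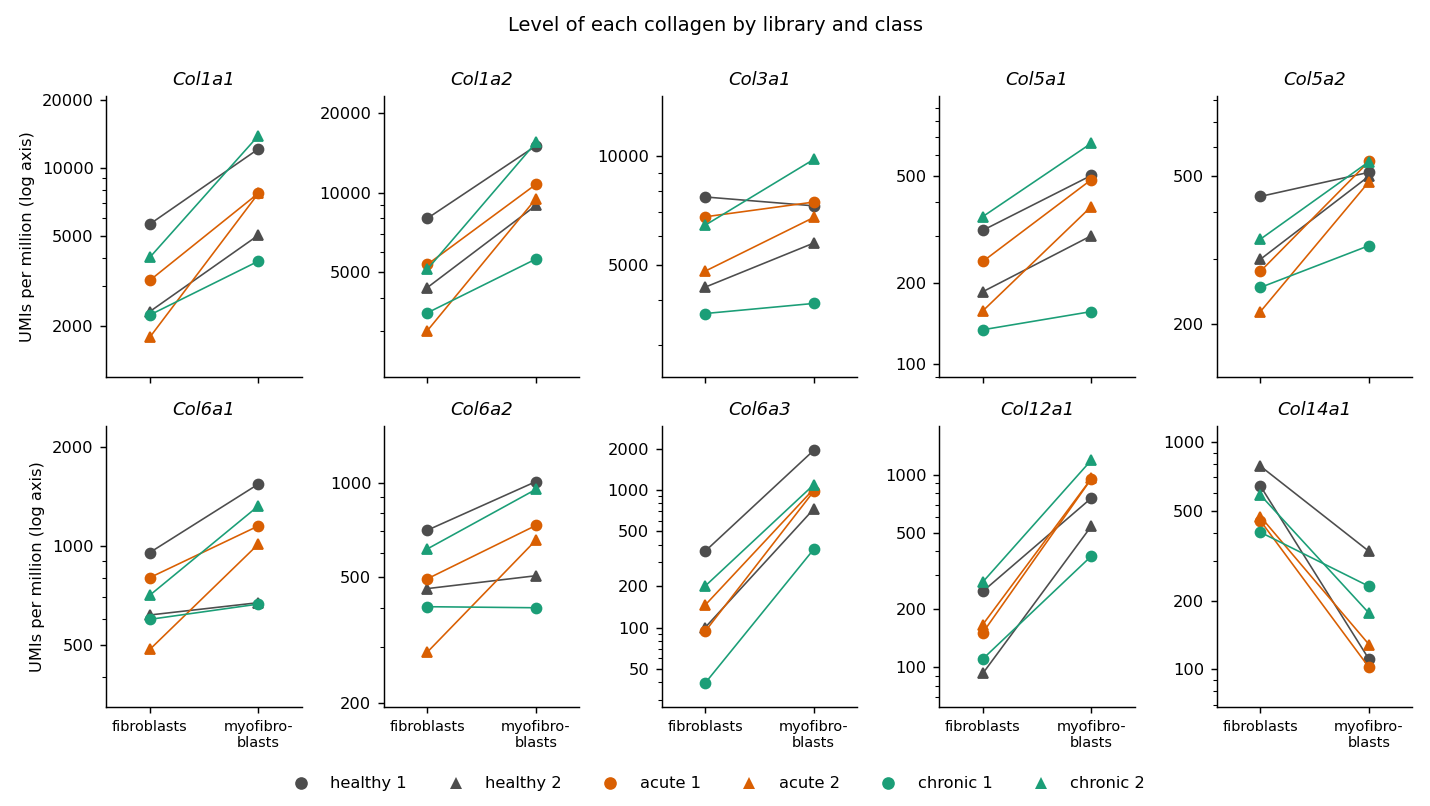
Level of each collagen in CPM (log axes that differ between panels) in fibroblasts and myofibroblasts, 1 point per library and a line joining the 2 classes of a library, with conditions in colour and replicates 1 and 2 as circles and triangles. Col6a3 and Col12a1 rise and Col14a1 falls along every line, while those of Col3a1 rise least, with a slight fall in healthy 1.

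Among the fibril-forming genes, Col1a1, the α1 chain of type I collagen, stood at 5641 and 2317 in healthy, 3182 and 1784 in acute and 2238 and 4021 in chronic fibroblasts. In myofibroblasts it stood at 12123 and 5042 in healthy, 7725 and 7711 in acute and 3870.4 and 13875 in chronic samples. Myofibroblasts were above fibroblasts in each of the 6 libraries, 1.73 to 4.32 times, while the ranges of both classes overlapped between libraries. The fitted difference was 1.41 on the log2 scale (SE 0.15, adjusted p = 7.06e-07), or 2.66-fold.

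Col1a2, the α2 chain that joins α1 chains in the same helix, took the most UMIs of the 10 genes in the myofibroblasts of every library. It read 8011 and 4385 in healthy, 5362 and 3013 in acute and 3518 and 5146 in chronic fibroblasts, and 15065 and 8967 in healthy, 10774 and 9512 in acute and 5622 and 15518 in chronic myofibroblasts. In 6 of 6 libraries the myofibroblast value was the higher, 1.60 to 3.16 times, and the difference came to 1.19 on the log2 scale (SE 0.13, adjusted p = 1.17e-06).

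Col3a1, which forms thinner fibrils that often contain type I chains as well, differed least. Its fibroblast levels were 7712 and 4338 in healthy, 6795 and 4804 in acute and 3668 and 6439.6 in chronic mucosa, and its myofibroblast levels 7288 and 5747 in healthy, 7465 and 6766 in acute and 3912 and 9795 in chronic mucosa. Healthy 1 had slightly less in myofibroblasts and the other 5 libraries more. The difference of 0.32 on the log2 scale (SE 0.11, adjusted p = 0.0371) passed the threshold narrowly. It did not pass it with library sizes left without TMM factors (adjusted p = 0.0529), with DESeq2 (adjusted p = 0.0505), or in edgeR with any of healthy 2, acute 1, acute 2 or chronic 2 left out (adjusted p = 0.0994 to 0.149).

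Type V collagen is a minor partner that is built into type I fibrils and limits their diameter. For Col5a1, fibroblasts held 315 and 186 in healthy, 241 and 158 in acute and 135 and 354 in chronic libraries and myofibroblasts 504 and 301 in healthy, 486 and 386 in acute and 157 and 664 in chronic libraries. For Col5a2 the values were 442 and 299 in healthy, 278 and 216 in acute and 251 and 339 in chronic fibroblasts, and 513 and 501 in healthy, 548 and 484 in acute and 326 and 548 in chronic myofibroblasts. Both genes were higher in myofibroblasts in 6 of 6 libraries, though by less than the type I genes. Col5a1 differed by 0.87 on the log2 scale (SE 0.13, adjusted p = 4.87e-05) and Col5a2 by 0.74 on the log2 scale (SE 0.13, adjusted p = 2.47e-04).

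The type VI genes parted from one another. Col6a1, the α1 chain, was at 956 and 617 in healthy, 802 and 485 in acute and 599 and 709 in chronic fibroblasts and at 1543 and 673 in healthy, 1151 and 1014 in acute and 666 and 1324 in chronic myofibroblasts. Col6a2, the α2 chain, was at 707 and 461 in healthy, 495 and 289.6 in acute and 404 and 616 in chronic fibroblasts and at 1009 and 506 in healthy, 732 and 657 in acute and 401 and 953 in chronic myofibroblasts. The 2 classes lay close together for both genes in healthy 2 and chronic 1, and Col6a2 was marginally lower in the myofibroblasts of chronic 1. The differences were 0.61 on the log2 scale (SE 0.13, adjusted p = 0.00184) for Col6a1 and 0.55 on the log2 scale (SE 0.14, adjusted p = 0.00586) for Col6a2. Col6a3 encodes the longer α3 chain, which completes the type VI molecule. It stood at 359 and 100.1 in healthy, 93.9 and 146 in acute and 39.5 and 200.3 in chronic fibroblasts, against 1939.7 and 727 in healthy, 977 and 1016 in acute and 371 and 1091 in chronic myofibroblasts. In each library the myofibroblasts were far above the fibroblasts, 5.41 to 10.4 times, and the lowest myofibroblast value exceeded the highest fibroblast value. At 2.91 on the log2 scale (SE 0.13, adjusted p = 3.85e-11), a 7.51-fold difference, it was the largest of the 10, and it stayed between 2.76 and 3.12 under all settings tried.

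The FACIT genes, whose products coat fibrils, differed in opposite directions. Col12a1, known from tissue under mechanical load, was at 248 and 93.0 in healthy, 151 and 167 in acute and 111 and 277 in chronic fibroblasts and at 756 and 541 in healthy, 952 and 956 in acute and 378 and 1190.4 in chronic myofibroblasts. All 6 myofibroblast values exceeded all 6 fibroblast values, and the difference was 2.25 on the log2 scale (SE 0.14, adjusted p = 1.91e-09). Col14a1, which binds fibrils through their decorin, was at 642 and 785 in healthy, 451 and 471 in acute and 401 and 585 in chronic fibroblasts and at 111 and 331 in healthy, 102 and 129 in acute and 232 and 177 in chronic myofibroblasts. Here all 6 fibroblast values were above all 6 myofibroblast values. The difference was −1.70 on the log2 scale (SE 0.17, adjusted p = 3.39e-07). Among the myofibroblasts, healthy 2 and chronic 1 had the highest Col14a1 and the lowest Col1a1. The same libraries had the highest sum of the 5 fibroblast markers in that class, 2155 and 2759 CPM against 299 to 589 in the other 4. Its part in these levels was not tested.

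**Figure D3:**
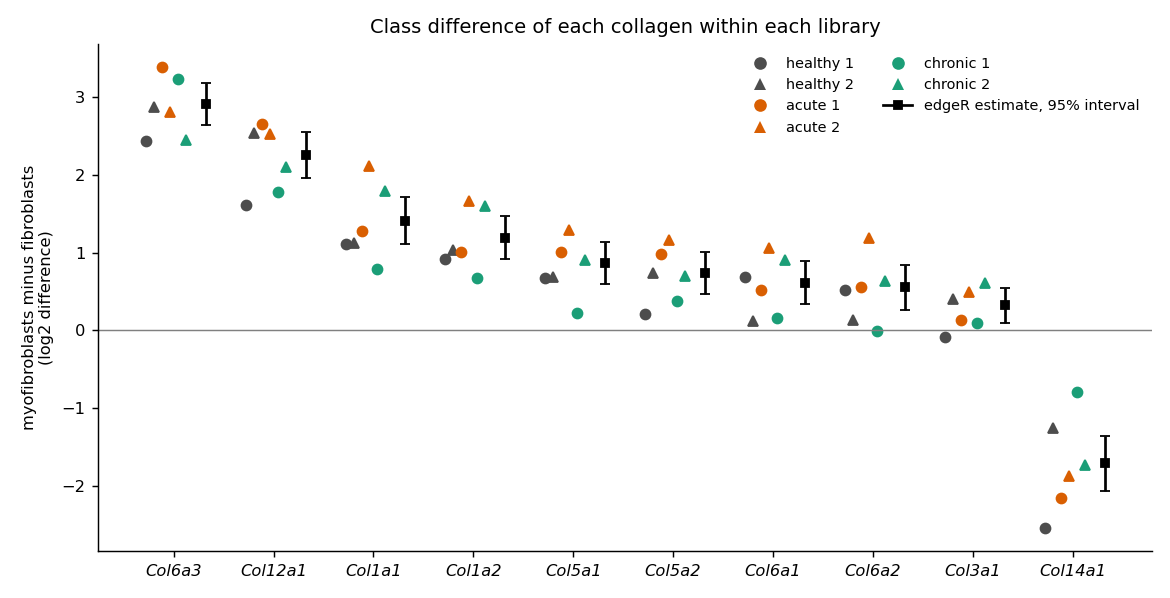
Myofibroblasts minus fibroblasts on the log2 scale for each collagen, coloured points being the 6 libraries and black squares the edgeR estimates with 95% intervals. Estimates run from 2.91 for Col6a3 down to −1.70 for Col14a1, and 1 library each lies just below 0 for Col3a1 (healthy 1) and Col6a2 (chronic 1).

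The calls of 3 genes were lost when each class was reduced to 1 subtype, the Pi16/Mfap5 fibroblasts and the Car3/Cxcl14 cells, a comparison chosen after the data were seen. It also left out the fibroblasts of chronic 2, which had too few cells of that subtype. Col3a1 (0.13 on the log2 scale, adjusted p = 0.414), Col6a1 (0.45, SE 0.15, adjusted p = 0.0542) and Col6a2 (0.39, SE 0.16, adjusted p = 0.109) did not pass in edgeR, and the other 7 did. Which of the changes took the calls away was not tested. These subtype names are labels from marker scores, and the subtypes share markers, as given below.

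Because counts of transcript ends are not scaled by transcript length, genes were set against each other as ratios of UMIs within a class and library. Col6a2 per Col6a1 UMI was alike in both classes, with a median of 0.707 (range 0.597 to 0.870) in fibroblasts and 0.651 (range 0.601 to 0.752) in myofibroblasts. Col6a3 per Col6a1 UMI was 0.222 (range 0.0660 to 0.375) in fibroblasts and 0.926 (range 0.556 to 1.26) in myofibroblasts. The ranges of the former ratio overlapped between the classes and those of the latter did not. Col3a1 exceeded Col1a1 in fibroblasts, with 1.76 (range 1.37 to 2.69) UMIs per UMI, but not in most myofibroblasts, with 0.922 (range 0.601 to 1.14). The ratio of the FACIT genes separated the classes most: Col12a1 per Col14a1 UMI was 0.345 (range 0.119 to 0.474) in fibroblasts and 6.78 (range 1.63 to 9.33) in myofibroblasts. Of the UMIs of the 10 genes together, Col1a1, Col1a2 and Col3a1 took medians of 18.8%, 30.5% and 33.4% in fibroblasts and 26.0%, 35.1% and 23.9% in myofibroblasts, so that these 3 genes made up most of the collagen transcripts of either class. Col6a3 took 0.904% in fibroblasts and 3.14% in myofibroblasts, and Col14a1 3.33% and 0.421%. These ratios are given as a description, without a test.

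**Figure D4:**
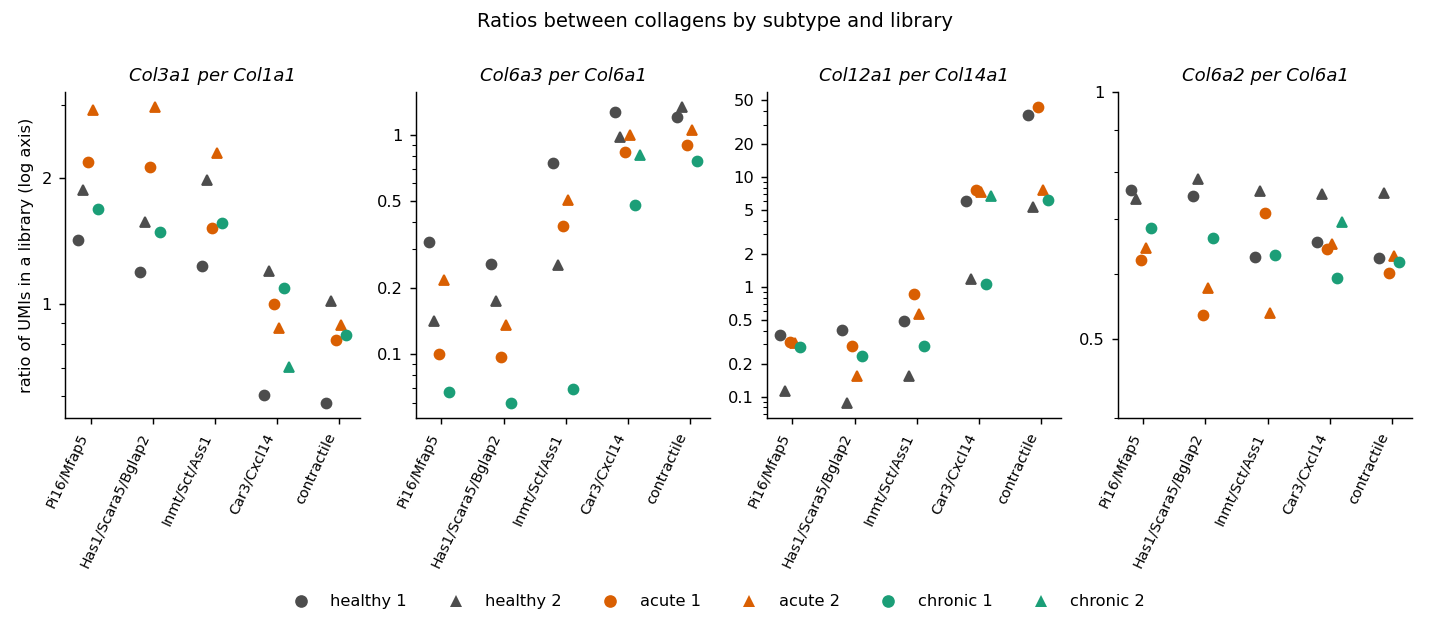
Ratio of the UMIs of 2 collagens in each mesenchymal subtype (horizontal axis) and library (points; log axes that differ between panels). Col3a1 per Col1a1 is lower, and Col6a3 per Col6a1 and Col12a1 per Col14a1 are higher, in the myofibroblast subtypes on the right than in most fibroblast values on the left, whereas Col6a2 per Col6a1 overlaps throughout.

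Subtypes were then compared within each class, in the libraries with at least 20 cells of a subtype, again with edgeR's quasi-likelihood test and the library as a block. The subtype names are labels from marker scores. Car3 stood at 6040 to 8770 CPM in contractile and 2713 to 5989 in Car3/Cxcl14 cells, and Cxcl14 at 6986 to 10054 and 2018 to 9980. Both subtypes thus held these genes. Within each library used for both subtypes, Car3 was higher in contractile cells. So was Cxcl14, except in acute 2, where it stood at 9883 in contractile and 9980 in Car3/Cxcl14 cells. Acta2 and Tagln were also among the leading genes of Car3/Cxcl14 sub-clusters. Scara5 and Has1 were among those of a Pi16/Mfap5 sub-cluster, and Pi16 among those of Has1/Scara5/Bglap2 cells. Of 7885 genes, 0.14% were called between Has1/Scara5/Bglap2 and Pi16/Mfap5 fibroblasts, 2.08% between Inmt/Sct/Ass1 and Pi16/Mfap5 fibroblasts, 2.24% between Inmt/Sct/Ass1 and Has1/Scara5/Bglap2 fibroblasts and 3.44% between contractile and Car3/Cxcl14 myofibroblasts. Col6a3 was the member called, in 2 of 40 pairs of gene and comparison. Its levels in healthy 1, healthy 2, acute 1, acute 2 and chronic 1 were 672, 127, 242, 228 and 41.2 in Inmt/Sct/Ass1, 312, 93.0, 79.7, 108 and 39.9 in Pi16/Mfap5 and 252, 96.9, 90.7, 71.8 and 36.5 in Has1/Scara5/Bglap2 fibroblasts. Inmt/Sct/Ass1 cells were the highest of the 3 subtypes in all 5 libraries, with hardly any difference from Pi16/Mfap5 cells in chronic 1. They numbered 25 in acute 1, so that value rests on few cells, and 119 to 683 in the other libraries used. They exceeded Pi16/Mfap5 cells by 0.93 on the log2 scale (SE 0.18, adjusted p = 0.00257) and Has1/Scara5/Bglap2 cells by 1.16 on the log2 scale (SE 0.22, adjusted p = 0.00212). The 5 myofibroblast markers were also highest in the Inmt/Sct/Ass1 cells, with a sum of 497 to 3631 CPM against 211 to 1243 and 138 to 732, and their part in the Col6a3 level was not tested.

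The other 9 collagens were not called between fibroblast subtypes. Col14a1 read lower in Inmt/Sct/Ass1 than in Pi16/Mfap5 fibroblasts in 5 of 5 libraries, at −0.42 (95% interval −0.90 to 0.063), and so did Col3a1, at −0.39 (95% interval −0.66 to −0.13), Col6a1, at −0.23 (95% interval −0.50 to 0.034), and Col6a2, at −0.34 (95% interval −0.63 to −0.046). None of these passed the threshold in edgeR (adjusted p = 0.556, 0.136, 0.554 and 0.333). Has1/Scara5/Bglap2 and Pi16/Mfap5 fibroblasts lay close together for most members: Col1a1 differed by 0.058 (95% interval −0.28 to 0.39) and Col6a1 by 0.0033 (95% interval −0.26 to 0.27). In the myofibroblast pair Col6a3 stood at 1863, 1068, 1155, 1027 and 634 in contractile cells of those 5 libraries, and at 1949.8, 618, 939, 1014, 294 and 1077 in Car3/Cxcl14 cells of all 6. Contractile cells had more Col12a1 in 5 of 5 libraries, by 0.56 (95% interval 0.20 to 0.92), with an adjusted p of 0.0810 in edgeR. Col14a1 differed by −0.79 (95% interval −1.41 to −0.18), with contractile cells lower in 4 of 5 libraries (adjusted p = 0.179), and was called when acute 2 was left out (−1.69, adjusted p = 0.00531). Outside acute 2, contractile cells numbered only 22 to 95 in the libraries used, so their Col14a1 values rest on few cells. The 5 fibroblast markers summed to 63.2 to 900.3 CPM in contractile and 325 to 3297 in Car3/Cxcl14 cells, and their part in the Col14a1 level was not tested.

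Between healthy, acute and chronic libraries, no collagen passed the test in either class. Of all genes, 0.0459%, 0.0275% and 0% were called in fibroblasts for acute against healthy, chronic against healthy and chronic against acute, and 0.0372%, 0% and 0% in myofibroblasts, so calls were rare for any gene. In simulated data for acute against healthy, 8.16% of 2-fold changes were called in fibroblasts and 4.17% in myofibroblasts. In edgeR's quasi-likelihood test 0 of the 10 genes were called in any of the 6 comparisons, and 1 of 60 pairs of gene and comparison had an unadjusted p under 0.05. DESeq2 also called 0 of the 10, and none had an unadjusted p under 0.05. Genes with an unadjusted p under 0.05 in edgeR numbered 390, 536 and 316 in fibroblasts and 206, 402 and 417 in myofibroblasts. The tests share libraries: acute and chronic were set against the same 2 healthy libraries. The spread within groups was wide. The higher of 2 healthy libraries exceeded the lower by up to 3.58 times in fibroblasts (Col6a3), and the higher chronic one by up to 5.07 times in fibroblasts (Col6a3) and 4.22 times in myofibroblasts (Col5a1), whereas the acute myofibroblasts differed by 1.00 to 1.26 times.

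In fibroblasts all 10 genes had values below 0 for acute against healthy, with a median of −0.58 on the log2 scale beside −0.0082 for all genes, and for chronic against healthy, with −0.48 beside −0.04. This common sign depended on healthy 1, and less on acute 2 or chronic 1. Without healthy 1, 4 of the 10 were below 0 (median 0.071) for acute and 6 of the 10 were below 0 (median −0.063) for chronic injury. Without acute 2, 8 of the 10 were below 0 (median −0.23) for acute injury, and without chronic 1, 8 of the 10 were below 0 (median −0.33) for chronic injury. Col1a1 differed by −0.69 (95% interval −1.74 to 0.36) in acute and −0.53 (95% interval −1.59 to 0.52) in chronic fibroblasts, and Col1a2 by −0.58 (95% interval −1.5 to 0.34) and −0.69 (95% interval −1.61 to 0.23). The group means of Col1a1 were 3979 ± 2350.1 (SD, n = 2) in healthy, 2483 ± 989 (SD, n = 2) in acute and 3129 ± 1261 (SD, n = 2) in chronic fibroblasts. Both healthy 1 values were high and both healthy 2 values fell among the injured libraries. Nearest to 0 in acute fibroblasts lay Col3a1, at −0.067 (95% interval −0.95 to 0.82), and Col12a1, at −0.11 (95% interval −1.17 to 0.94). Col6a3 had the lowest estimate, −1.64 (95% interval −3.32 to 0.051) in chronic fibroblasts, with an unadjusted p of 0.0560 in edgeR. The type V and other type VI genes lay between −0.60 and −0.30 in these comparisons.

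Col14a1 was the gene whose fibroblast groups separated. Its mean was 713 ± 101 (SD, n = 2) in healthy, 461 ± 13.9 (SD, n = 2) in acute and 493 ± 130.1 (SD, n = 2) in chronic fibroblasts. The healthy values of 642 and 785 were above the acute 451 and 471 and the chronic 401 and 585. The difference was −0.64 (95% interval −1.33 to 0.051) in acute and −0.72 (95% interval −1.43 to −0.0058) in chronic fibroblasts. The latter was the member comparison with an unadjusted p under 0.05, 0.0485 in edgeR, and its adjusted p was 0.999. Col5a2 separated healthy from acute fibroblasts only, at −0.60 (95% interval −1.34 to 0.14). The 11 urothelial markers in fibroblasts summed to 663, 2871, 793, 2350.1, 4897 and 1756 CPM in the order of libraries given above, with all 11 detected except in chronic 2, where 10 were. The RNA of urothelial genes in fibroblasts thus varied within groups, and its part in the collagen levels was not tested. The make-up of the class varied as well. In the same order, Inmt/Sct/Ass1 cells were 135, 286, 25, 683, 119 and 3 of the 825, 1309, 304, 1667, 1134 and 21 fibroblasts. The part of this make-up in the differences between conditions was not tested.

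Myofibroblasts showed no common direction. The medians of the 10 genes were −0.076 for acute and −0.14 for chronic against healthy. Col1a1 differed by −0.15 (95% interval −1.59 to 1.30) and 0.049 (95% interval −1.40 to 1.5), and Col3a1 by 0.14 (95% interval −0.90 to 1.18) and 0.074 (95% interval −0.96 to 1.11). Col12a1 had the highest estimate, 0.57 (95% interval −0.60 to 1.73) in acute myofibroblasts, whose values of 952 and 956 were above the healthy 756 and 541. The acute pair also differed little from each other. Col14a1 and Col6a3 had the lowest, −0.89 (95% interval −2.0 to 0.22) in acute and −0.88 (95% interval −2.25 to 0.50) in chronic cells. Between chronic and acute libraries the 10 genes ran from −0.69 (Col6a3) to 0.20 in fibroblasts and from −0.46 (Col6a3) to 0.79 (Col14a1) in myofibroblasts, the last with both chronic values, 232 and 177, above both acute ones, 102 and 129.

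**Figure D5:**
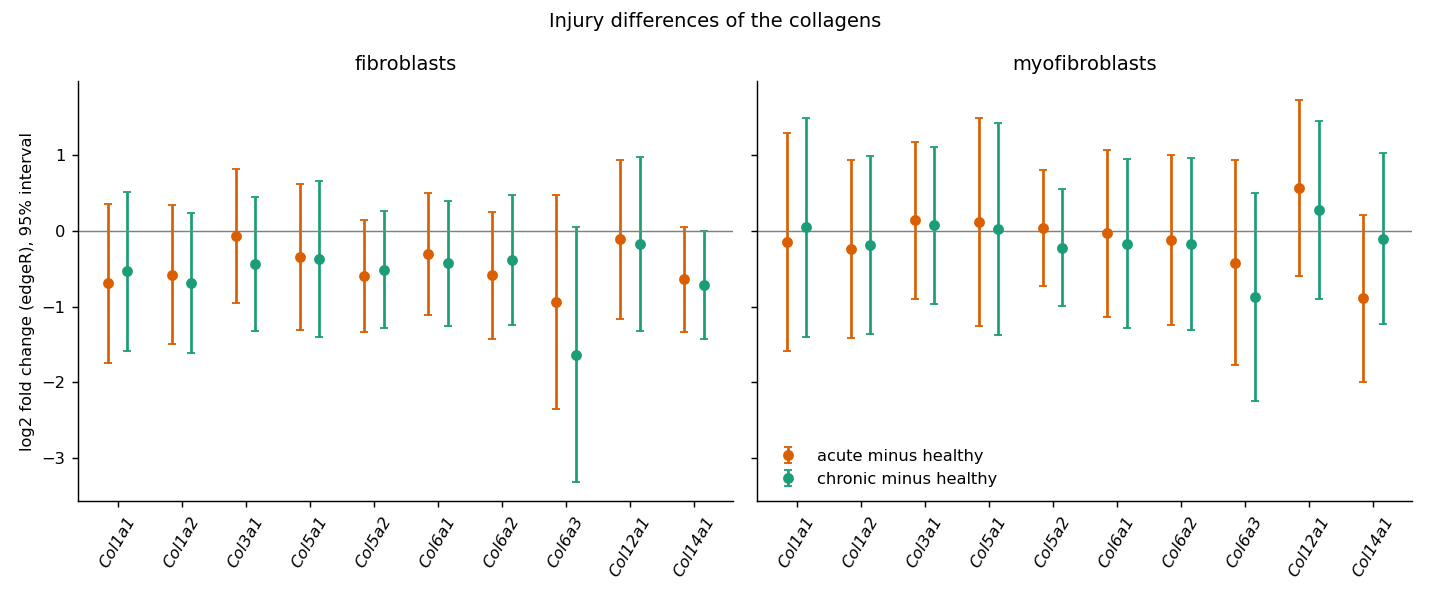
Log2 fold changes from edgeR with 95% intervals for acute (orange) and chronic (green) against healthy libraries, in fibroblasts (left) and myofibroblasts (right). Apart from Col14a1 in chronic fibroblasts, whose upper bound is −0.0058, every interval includes 0.

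Whether an injury effect differed between the classes was tested as the class-by-condition term in the same edgeR model. It called 0.00919% of genes for acute and 0.0276% for chronic injury, and 0 of the 10 collagens for either. At an unadjusted p under 0.05, 439 and 431 genes passed. Among them were Col5a2 for acute injury, at 0.62 (SE 0.26) with an unadjusted p of 0.0254 in edgeR, and Col14a1 for chronic injury, at 0.78 (SE 0.36) with an unadjusted p of 0.0382 in edgeR. Values above 0 mean that the myofibroblast change was the higher. DESeq2 called 0 of the 10 as well.

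The wider collagen machinery differed between the classes as well, in the same edgeR fit that called 21.1% of all genes with a median log2 difference of 0.0058. The following values are log2 differences of myofibroblasts minus fibroblasts. Among the enzymes and chaperones that modify and fold new collagen chains, of 20 tested, 9 were called higher and 0 lower in myofibroblasts (median 0.38). Creb3l1, a transcription factor for collagen secretion, stood at 1.46, P3h3, of the prolyl hydroxylase family, at 1.0, and P4ha2, a subunit of the prolyl hydroxylase that stabilises the helix, at 0.74, the last not called without acute 2. Among the genes that trim procollagen, of 5 tested, 0 were called higher and 2 lower in myofibroblasts (median 0.075). These were Pcolce2, an enhancer of propeptide removal, at −5.08, and Adamts2, which removes the amino-terminal propeptide, at −0.54. Cross-linking genes were split: of 6 tested, 3 were called higher and 1 lower in myofibroblasts (median 0.70). Lox, lysyl oxidase, was at 2.89, the transglutaminase Tgm2 at 0.93 and Loxl2 at 0.75, whereas Loxl1 was at −1.03.

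The glycoproteins and proteoglycans that sit on fibrils were divided most evenly: of 17 tested, 9 were called higher and 8 lower in myofibroblasts (median 0.56). Tenascin C (Tnc, 5.74), fibromodulin (Fmod, 3.24) and the thrombospondin Thbs2 (2.13) were the highest, and lumican (Lum, −2.76), dermatopontin (Dpt, −2.33) and Sparcl1 (−2.33) the lowest. For collagen receptors, of 5 tested, 2 were called higher and 1 lower in myofibroblasts (median 0.21). They were Itga11, the α chain of a collagen-binding integrin (3.97), Mrc2, which takes up collagen fragments (0.72), and Ddr2, a collagen-activated receptor kinase (−0.71). For degradation genes, of 8 tested, 3 were called higher and 1 lower in myofibroblasts (median 0.29). The matrix metalloproteinases Mmp2 (1.35) and Mmp14 (0.83) and cathepsin K (Ctsk, 0.84) were higher and Timp3, an inhibitor of metalloproteinases (−1.99), was lower, and Mmp14 was not called with 1 subtype per class. For other collagens, of 13 tested, 8 were called higher and 3 lower in myofibroblasts (median 0.65). The fibril-forming Col11a1 (3.83), Col24a1 (3.04) and Col27a1 (2.39) led them, and Col15a1 (−1.64), Col8a1 (−1.64) and Col5a3 (−1.0) were lowest, the last not called without healthy 1.

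Between conditions, edgeR called 0 of the genes on these lists in either class. At an unadjusted p under 0.05, 6, 9 and 3 of 76 tested passed in fibroblasts for acute against healthy, chronic against healthy and chronic against acute. These are 7.89%, 11.8% and 3.95%, beside 3.58%, 4.92% and 2.90% of all genes. In myofibroblasts 7, 3 and 9 of 69 passed, 10.1%, 4.35% and 13.0% beside 2.55%, 4.98% and 5.17% of all genes. DESeq2 called 0 of them as well. Lum, a proteoglycan that spaces fibrils, was called in the class-by-condition term for chronic injury (2.27, adjusted p = 0.00787 in edgeR), but not with DESeq2, with 1 subtype per class or without healthy 1, chronic 1 or chronic 2. Between subtypes, Inmt/Sct/Ass1 fibroblasts had less Pcolce2 (−2.60), Dpt (−1.15), Loxl1 (−0.72), Fn1, which encodes fibronectin (−0.61), and Adamts2 (−0.59) than Pi16/Mfap5 fibroblasts, and more Tnc (1.83), Fmod (1.67), Itga11 (1.31) and Col27a1 (1.28). The part of the myofibroblast markers, which were higher in the same cells as given above, was not tested for these genes either. Against Has1/Scara5/Bglap2 fibroblasts they had more Col27a1 (2.27), Thbs2 (1.23) and Tgm2 (0.59) and less Pcolce2 (−1.83), Timp3 (−1.11), Adamts2 (−0.78) and Fn1 (−0.62). Dpt was lower in Has1/Scara5/Bglap2 than in Pi16/Mfap5 fibroblasts (−1.89). Contractile myofibroblasts had more Col4a2 (0.66) and Col4a1 (0.58), the chains of the basement membrane collagen, and less Sparcl1 (−1.99), Tnxb (−1.21) and Fbln1 (−1.03) than Car3/Cxcl14 cells, where the fibroblast markers were also higher, as given above. Their part in these differences was not tested.

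Across the 26 sums of a mesenchymal subtype in a library, the levels of the chains of 1 molecule went together for type I, with a Pearson correlation of log2(CPM + 1) of 0.981, and for Col6a1 and Col6a2, at 0.958. For type V it was 0.880, lower than that of Col1a1 with Col5a1 (0.921) or Col5a2 (0.921). Col6a3 was closer to Col12a1 (0.933) than to Col6a1 (0.744) or Col6a2 (0.729). Col14a1 ran against every other member, from −0.276 to −0.802. The points share libraries, depth and their assignment to subtypes, and these correlations are descriptions.

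Over all 48 sums of a class or subtype and 8923 genes, the 3 genes outside the 10 whose levels were most like each member were found by the same correlation, given in parentheses. They were Mmp2 (0.965), Adam23 (0.951), Nbl1 (0.945) for Col1a1, Nbl1 (0.960), Mrc2 (0.960), Mmp2 (0.958) for Col1a2 and Nbl1 (0.969), Bgn (0.962), Copz2 (0.960) for Col3a1. For type V they were Antxr1 (0.973), B3gnt9 (0.959), Mrc2 (0.953) with Col5a1 and Fzd1 (0.964), C1qtnf2 (0.955), Pcolce (0.954) with Col5a2. For type VI they were Lhfp (0.964), Antxr1 (0.957), C1qtnf2 (0.955) with Col6a1, Lhfp (0.970), C1s1 (0.966), Mmp2 (0.964) with Col6a2 and Rerg (0.934), Foxf2 (0.917), Wfdc1 (0.913) with Col6a3. For the FACIT genes they were Mmp2 (0.926), Thbs2 (0.924), Pofut2 (0.920) with Col12a1 and Lefty1 (0.951), Cd248 (0.940), Osr1 (0.930) with Col14a1. Within the mesenchymal sums alone, those nearest to Col6a3 were Tgfbi (0.958), Thbs2 (0.955), Gm2a (0.949), and those nearest to Col14a1 Akap12 (0.940), Krtdap (0.939), Entpd2 (0.939).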

How the data were processed

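Droplet-based scRNA-seq libraries of bladder mucosa (2 healthy, 2 acute and 2 chronic) were analysed. The authors ran Cell Ranger against mm10 and deposited UMI counts for each gene and cell, as whole numbers that were not normalized. The tables list different numbers of genes, so the 14450 genes listed in all 6 were used, less 13 mitochondrial and 95 ribosomal protein genes. The last line of the healthy 1 table ends early. Cells stayed in with more than 500 genes and less than 10% of UMIs from mitochondrial genes (5348 to 13864 per library).

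Doublets were called with the Scrublet method in scanpy 1.11.5 at 0.8% per 1000 cells and left out, as were clusters with over 33.3% doublets. Libraries were integrated in Seurat 5.3.0 (sctransform, reciprocal principal components, 3000 features without the 99 collagen, member and list genes) in R 4.3.3 and clustered with leidenalg 0.10.2 (resolution 0.8, 20 neighbours, 30 components). Clusters were named from marker lists, and mesenchymal cells were clustered again in the same way. The scoring rules for names were settled after the clusters were seen.

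For each class with 20 cells or more in a library, the UMIs of its cells were added up. These sums were tested by the quasi-likelihood method of edgeR 4.0.16 after filterByExpr and TMM scaling, with Benjamini-Hochberg adjustment at 0.05, and with DESeq2 1.42.0 as an alternative. Steps were tested on simulated counts with 2-fold and 4-fold changes put into some genes. For acute against healthy, 8.16% of the 2-fold and 61% of the 4-fold changes were called in fibroblasts, and 4.17% and 57.8% in myofibroblasts. Between myofibroblasts and fibroblasts 85.7% and 100% were called. Calls of unchanged genes numbered 33, 7 and 32 in that order. In each simulation they made up a larger share of the calls than the threshold of 0.05 allows. Calls with an adjusted p near the threshold, such as that of Col3a1 between the classes, are therefore uncertain. A lack of calls between conditions does not exclude 2-fold or 4-fold changes, since many of those put in were missed. Other settings were library sizes without TMM factors, no filter on low counts, stricter cell limits (over 1000 genes, under 5% mitochondrial UMIs), doublets kept, no integration, a replicate block and each library left out. Fibroblast subtypes had under 20 cells in chronic 2, so their comparisons used 5 libraries. All members were named, and of the other lists at most the 3 largest called rises and falls per comparison. Members and lists were chosen with earlier results of these data known. Intervals cover counting error and library spread as the model sees them, and the batch of each library was not known here.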

Additional observations from a re-analysis of the deposited data

Results flagged for a closer look

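Contractile minus Car3/Cxcl14 myofibroblasts of the same library gave a Col5a2 difference of −0.0127 on the log2 scale in healthy 1, apart from 0.23 to 0.27 in the other 4 libraries. It was picked out because its gap to the nearest of them exceeded Dixon's limit for 5 values. It is 1 of 40 such sets of differences examined, and chance picks out about 1 in 20. Col5a2 did not pass edgeR's test between these subtypes (adjusted p = 0.673).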

How the results depend on the processing

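The 10 collagens gave 2050 values under other settings, of which 1901 kept their direction and their side of the threshold. Another 137 were uncalled values that changed sign, 11 lost their call and 1 gained one. The calls lost are given with the results, except that of Col3a1 in myofibroblasts against fibroblasts when clusters were found without integration (adjusted p = 0.0852 in edgeR). For these values the cause was not tested. Between conditions the number of collagens called stayed at 0 under every setting, with edgeR and DESeq2. The number of all genes called there was small and unstable. In fibroblasts for acute against healthy it was 5, and 18 with DESeq2, 11 without a filter on low counts, 0 without integration, 1 with 1 subtype per class and 0 to 108 with 1 library left out, highest without acute 1. For chronic against healthy it was 3, and 8 without TMM factors, 24 with DESeq2, 11 without the filter, 5 with stricter cell limits, 1 without integration, 1 with 1 subtype and 0 to 50 with 1 library left out, highest without healthy 2. For chronic against acute it was 0, and 0 to 58 with 1 library left out, highest without acute 1. In myofibroblasts the acute count was 3, and 7 with DESeq2, 48 without the filter, 0 without integration and 0 to 26 with 1 library left out, highest without acute 1. The chronic count was 0, and 17 with DESeq2, 29 without the filter and 0 to 2 with 1 library left out. The chronic against acute count was 0, and 1, 19 and 0 to 6 under the same settings, highest without acute 1. The class-by-condition term called 1 gene for acute injury, 0 with DESeq2, 48 without the filter, 6 without mesenchymal sub-clusters 8 and 9, 3 with 1 subtype and 0 to 65 with 1 library left out, highest without acute 1. For chronic injury it called 3, and 1, 37, 10, 1 and 0 to 56 in that order, highest without healthy 2, and it could not be fitted without integration. Myofibroblasts against fibroblasts called 2296 genes, and 1516 to 2318 with 1 library left out, lowest without healthy 1. The subtype comparisons together called 623, and 335 to 623 with 1 library left out, lowest without healthy 1. A library left alone in its group is assumed there to vary like the others. Settings with sub-clusters 8 and 9 left out, with 1 subtype per class and without urothelial cluster 9 were chosen after the data were seen. Sub-cluster 8 had 12.5% called doublets before these were removed, and 92.6% of the cells of sub-cluster 9 came from acute 2. In acute 2, Col1a1 stood at 583 CPM in urothelial cluster 9 and at 170 in urothelial cells without it. With the replicate number as a block, fibroblasts gave 24 calls for acute and 20 for chronic injury, 0 of them collagens, and the other counts stayed within 1.5 times. Same-numbered healthy and acute libraries deviated together in part, with correlations of 0.345 in fibroblasts and 0.405 in myofibroblasts. Those with chronic libraries were −0.304 to −0.0909. The healthy 1 and acute 1 tables also listed the fewest genes, 15213 and 15065 against 17764 to 20180. The main model did not pair libraries by number, so a difference shared by same-numbered healthy and acute libraries is not taken out there. Whether these shared a batch is not known here. Depth limits the fibroblast value of chronic 2, which rests on 21 cells.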
